A study of Mus musculus with 8 samples.

Results

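The genes described here are 10 mouse genes for scavenger and engulfment receptors, Marco, Msr1, Cd36, Olr1, Stab1, Cd163, Mrc1, Mertk, Timd4 and Cd5l, out of 55385 genes in the count table. They were chosen by gene symbol and function after the response of Marco to IgG was known, so the group was selected on the IgG contrast, and the IgG changes of the members are given below as descriptions, from which no test is read. Of the 10 genes, 9 had enough counts to enter the fit over 17537 genes, and Cd163 did not.

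The study asked how IgG alters the transcriptome of microglia, the macrophages that reside in brain tissue. Both groups were primary cultured microglia from the neocortex and hippocampus of wild-type newborn mice, with 4 cultures per group. The IgG group received 10 µg/ml IgG at DIV15 (day 15 in vitro) for 24 h. The control group is labelled untreated in the sample records, while the methods of the study name PBS. Cells of several brains were pooled in flasks, cultured as a mixture, and the microglia were shaken off and replated before treatment, so that a library is a culture and not an animal. The labels give each control library the same date as the IgG library of its number, which makes 4 pairs, called dates 1 to 4 below. They do not say which step the date refers to.

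Scavenger receptors are surface proteins of macrophages that bind modified lipoproteins, bacteria, cell debris and other polyanionic ligands and carry them into the cell. Engulfment receptors bind phosphatidylserine, a lipid that dying cells expose, either directly or through bridging proteins, and start their uptake. Microglia clear dying neurons and debris with receptors of these families during brain development, and several of the genes, among them Mrc1, Cd163 and Stab1, are better known from macrophages at the borders of the brain.

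The bases just before the transcription start of Marco and of the 3 genes with the smallest p-values between dates (Timd4, Cd5l and Mrc1) are shown because the results turn on these genes. The sequences are the 250 bases before the start in RefSeq, build GRCm38.p6, 5′ to 3′ on the strand of the gene. Capitals mark matches to GAGGAAG, a motif bound by the macrophage factor PU.1, in Marco, Cd5l and Mrc1, and to TGCTGAC, a MAF half-site, in Timd4, on either strand.
Marco: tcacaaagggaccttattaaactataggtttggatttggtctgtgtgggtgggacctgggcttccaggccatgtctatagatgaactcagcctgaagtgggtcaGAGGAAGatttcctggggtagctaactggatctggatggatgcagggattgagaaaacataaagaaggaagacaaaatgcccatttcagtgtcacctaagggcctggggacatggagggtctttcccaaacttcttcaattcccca
Timd4: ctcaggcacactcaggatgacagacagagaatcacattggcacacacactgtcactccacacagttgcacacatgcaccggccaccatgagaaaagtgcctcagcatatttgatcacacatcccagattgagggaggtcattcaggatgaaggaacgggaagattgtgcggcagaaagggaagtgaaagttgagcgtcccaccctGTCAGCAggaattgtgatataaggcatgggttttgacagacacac
Cd5l: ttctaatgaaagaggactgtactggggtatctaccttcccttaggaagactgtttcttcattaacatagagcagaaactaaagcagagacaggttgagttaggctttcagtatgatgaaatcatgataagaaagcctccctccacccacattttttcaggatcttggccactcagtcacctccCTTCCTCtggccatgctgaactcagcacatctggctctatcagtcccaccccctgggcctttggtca
Mrc1: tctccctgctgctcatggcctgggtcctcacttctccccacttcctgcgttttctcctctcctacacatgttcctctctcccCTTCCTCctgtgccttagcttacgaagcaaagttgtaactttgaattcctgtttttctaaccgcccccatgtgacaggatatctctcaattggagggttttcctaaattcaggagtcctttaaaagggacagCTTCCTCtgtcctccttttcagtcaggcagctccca
These windows lie at chr1:120505025-120505274 (minus strand), chr11:46810549-46810798, chr3:87357631-87357880 and chr2:14229164-14229413 (all plus strand). The table of promoters held a window for 9 of the 10 genes, and Msr1 was the gene without one.

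In total 10 motifs were searched on both strands in these 9 windows and in all 32851 windows of the table. GAGGAAG was found in 3 of the 9 genes and in 10.6% of all windows. In Marco it lies 146 to 140 bases before the start (-146 to -140), in Cd5l at -67 to -61, and in Mrc1 at -168 to -162 and -36 to -30. TGCTGAC was found only in Timd4, at -45 to -39, and in 3.81% of all windows. The AP-1 motif TGANTCA was found only in Olr1, at -60 to -54, and in 6.75% of all windows. No match was found in the 9 genes for the interferon-stimulated response element GAAANNGAAA (2.98% of all windows), the GAS motif TTCNNNGAA (7.02%), the antioxidant response core TGACNNNGC (10.2%), the C/EBP motif TTGCNNAA (9.56%), the E-box CACGTG (6.02%), the TATA box TATAAA (12.4%) or the DR4 element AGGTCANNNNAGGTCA (0.0152%). No match overlapped another, although TGCTGAC and TGACNNNGC share letters. A match describes letters in the window and no binding was measured.

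Library totals were 21287816 to 23703216 counts, and the 3 counts that a count of 0 still allows correspond to 0.124 to 0.147 CPM. CPM are counts relative to the library total after TMM scaling, and these limits cover counting error only. IgG libraries 1 and 3 stood apart, with 4.85% and 5.59% of counts from mitochondrial genes against 1.97% to 2.41% in the other 6. Changes within pairs 1, 3 and 4 also followed the GC content of genes, with Spearman correlations across genes of -0.42, -0.42 and 0.34, against -0.03 in pair 2. Results are therefore also given without pairs 1 and 3 and after removal of trends on exon length and GC content. Microglial markers were high, with 9 of 10 at 10 counts or more in every library and a summed level of 2841 to 3219 CPM in control and 3075 to 3959 CPM in IgG libraries. Siglech, another marker of microglia, was near absent with at most 9 counts in a library. Of 9 markers of border-associated macrophages 6 reached 10 counts in every library. Their sum ran from 754 to 1071 CPM in control and from 871 to 1794 CPM in IgG libraries. Dab2 had the highest mean level over all 8 libraries, and Lyve1 had 5 counts or fewer. With IgG, 1 of the 8 border-associated markers tested and 2 of the 9 microglial markers tested rose at an adjusted p-value under 0.05. This was edgeR's quasi-likelihood test with the pairs as a block, in which 0.393% of all genes tested passed. Without the block, and again without pair 2, 0 of all genes passed. Markers of the oligodendrocyte lineage summed to 528 to 807 CPM in control and 551 to 761 CPM in IgG libraries. Astrocyte markers, led by Gfap (leading markers here are by mean over all 8 libraries), summed to 126 to 155 CPM, endothelial markers, led by Flt1, to 119 to 161 CPM with Cldn5 at 0, and neuronal markers, led by Map2, to 32.0 to 55.7 CPM over all libraries. Fibroblast markers, led by Col1a1, stayed at 6.35 CPM or less and monocyte and neutrophil markers, led by S100a8, at 3.06 CPM or less with S100a9 at 0. In such bulk RNA, fewer cells of a type and less RNA per cell cannot be told apart.

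Marco (ENSMUSG00000026390, chr1:120474538-120505024 of mm10, minus strand, protein coding) encodes a class A scavenger receptor that binds bacteria and particles. The control libraries of dates 1 to 4 had 55.0, 35.0, 60.2 and 33.1 CPM, and the IgG libraries 137, 109, 131 and 129 CPM. The lowest IgG library was far above the highest control library. The groups averaged 45.8 ± 13.8 and 127 ± 11.9 CPM (SD, n = 4 each). The fitted log2 fold change, IgG against control, was 1.51 (standard error 0.14), which ranked 16 among the 17537 genes tested.

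The Marco fold within pairs was 2.48, 3.12, 2.18 and 3.90 for dates 1 to 4. The control level is the denominator of this fold and the IgG levels lay close together, so the fold was largest where the control level was lowest. The coefficient of variation was 30.1% over the control libraries and 9.38% over the IgG libraries. With the trends on length and GC content removed, the log2 changes within pairs were 1.54, 1.63, 1.36 and 1.75, against 1.31, 1.64, 1.13 and 1.96 before. The standard error fell from 0.14 to 0.08 and the log2 fold change was 1.57. Without pairs 1 and 3, which hold the libraries with high mitochondrial shares, the log2 fold change was 1.80.

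As a description, Marco was the 1 gene of the 9 tested that passed an adjusted p-value under 0.05 with IgG, in edgeR's quasi-likelihood test with the pairs as a block, where 0.393% of all genes tested passed. It was also the 1 gene that met the criterion of the study, a p-value under 0.01 with an absolute logFC above 0.5. This was read here as an unadjusted p-value and a log2 fold change. Of all genes, 1.82% met it with the block and 0.844% without it. Marco was the 1 gene of the 9 with every IgG library above every control library, as were 2.6% of all genes. Without the block, and again without pair 2, 0 of the 9 and 0 of all genes passed the adjusted threshold. These counts are not read as a result, because Marco entered the group for its change in this contrast. The log2 fold change of Marco was 1.41 to 1.57 over the scalings, filters and tests tried and 1.34 to 1.80 when pairs were left out.

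**Figure D1:**
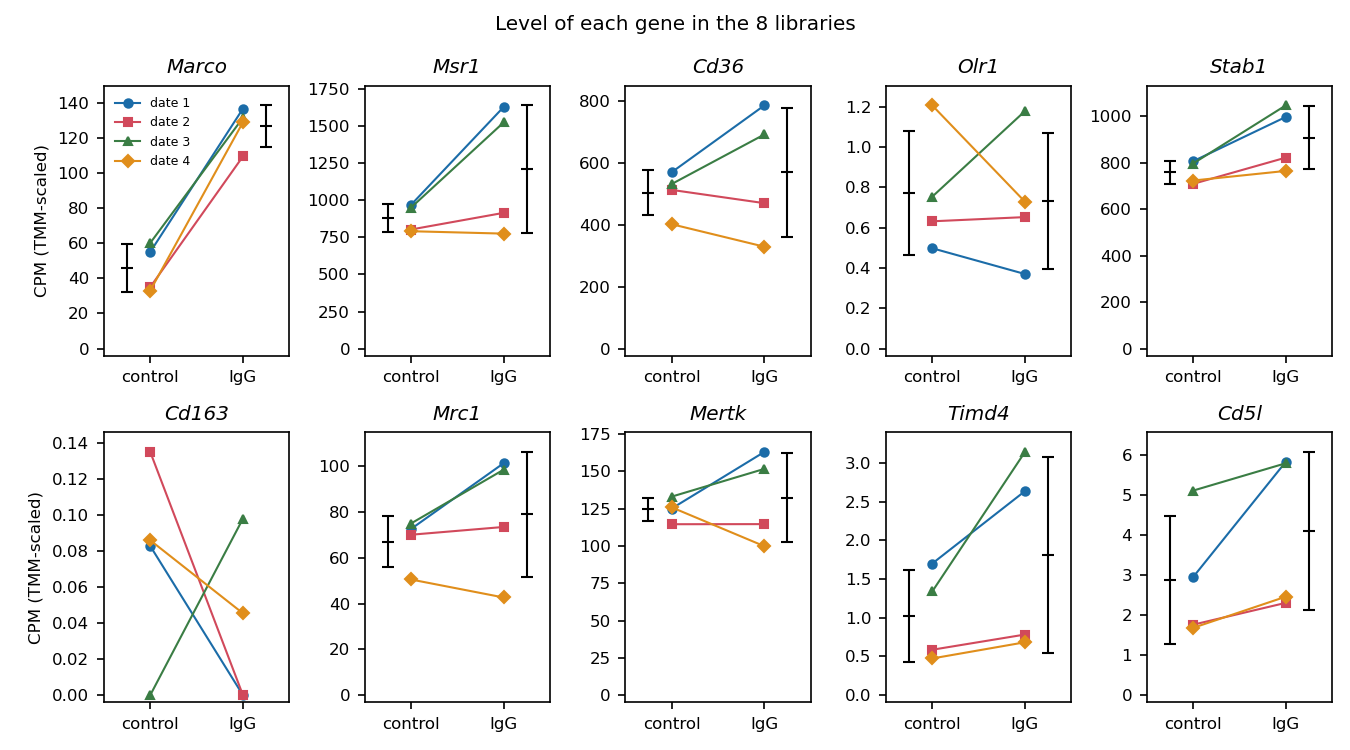
CPM of each gene (vertical axis, linear) in the control and IgG libraries, with a line joining the libraries of 1 date; black bars are mean ± SD (n = 4), left out for Cd163, which had at most 3 counts. The 4 Marco lines rise steeply from 33.1 to 60.2 CPM up to 109 to 137 CPM, while the lines of Msr1, Cd36 and Mrc1 fan out by date.

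Msr1 (ENSMUSG00000025044, chr8:39581685-39642673, minus strand, protein coding) is the other class A scavenger receptor of the group and binds modified lipoproteins and bacteria. Its control libraries had 968, 802, 949 and 791 CPM and its IgG libraries 1627, 914, 1523 and 775 CPM. The 2 highest values were those of IgG libraries 1 and 3, while IgG library 4 was below all control libraries. The log2 fold change was 0.40 (standard error 0.15), with changes within pairs of 0.75, 0.19, 0.68 and -0.03. The high values of IgG libraries 1 and 3 coincide with their mitochondrial shares and with the highest sums of border-associated macrophage markers, 1794 and 1667 CPM. Dab2, Siglec1 and Ms4a7 carried most of these sums. Not all markers were high there, and Folr2 was lower in IgG libraries 1 and 3 than in IgG libraries 2 and 4. The part of these in the change was not tested. Without pairs 1 and 3 the log2 fold change of Msr1 was 0.08. With the trends removed it was 0.29 (standard error 0.08), and the pairs had 0.43, 0.17, 0.33 and 0.23.

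Cd36 (ENSMUSG00000002944, chr5:17781690-17888801, minus strand, protein coding) encodes a class B scavenger receptor that takes up oxidised lipoproteins and long-chain fatty acids. Control libraries had 570, 513, 532 and 402 CPM and IgG libraries 785, 470, 692 and 329 CPM. IgG libraries 1 and 3 were again the highest, and IgG libraries 2 and 4 were below the control library of their own date. For Cd36 the log2 fold change was 0.11 (standard error 0.14), less than its error, and it was 0.01 with the trends removed and -0.21 without pairs 1 and 3. Olr1 (ENSMUSG00000030162, chr6:129485244-129507165, minus strand, protein coding), a receptor for oxidised low-density lipoprotein known best from endothelium, had 8 to 28 counts per library. Its levels were 0.498, 0.631, 0.754 and 1.21 CPM in control and 0.370, 0.652, 1.18 and 0.728 CPM in IgG libraries. The groups overlapped and the log2 fold change was -0.09 (standard error 0.33), or -0.16 with the trends removed and -0.38 without pairs 1 and 3.

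Stab1 (ENSMUSG00000042286, chr14:31139013-31168641, minus strand, protein coding) encodes stabilin-1, a large receptor that clears modified lipoproteins and extracellular proteins. Its levels were 806, 709, 796 and 723 CPM without IgG and 997, 822, 1047 and 765 CPM with IgG, and IgG library 4 lay within the range of the controls. The log2 fold change was 0.25 (standard error 0.10), or 0.30 (standard error 0.08) with the trends removed and 0.15 without pairs 1 and 3, and all 4 pairs were higher with IgG. Its exons share 112 bases, 1.09% of their length, with Nt5dc2 on the opposite strand, and the use of strand in counting is not given in the sources used here. Nt5dc2 had 37.5 to 61.9 CPM.

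Mrc1 (ENSMUSG00000026712, chr2:14229392-14332057, plus strand, protein coding), the mannose receptor CD206, binds glycoproteins that end in mannose. Control libraries had 72.6, 70.1, 75.0 and 50.6 CPM and IgG libraries 101, 73.5, 98.6 and 42.7 CPM. Date 4 held the lowest library of both groups, and IgG libraries 1 and 3 the highest. The log2 fold change was 0.18 (standard error 0.13), or 0.12 with the trends removed and -0.08 without pairs 1 and 3. Cd163 (ENSMUSG00000008845, chr6:124304656-124330527, plus strand, protein coding), the receptor for haemoglobin bound to haptoglobin, had 2, 3, 0 and 2 counts in control and 0, 0, 2 and 1 counts in IgG libraries. All were at or under the 3 counts that a count of 0 still allows, so at this depth no difference could be detected.

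Among the engulfment receptors, Mertk (ENSMUSG00000014361, chr2:128698956-128802894, plus strand, protein coding) is a receptor tyrosine kinase that recognises phosphatidylserine through the bridging ligands Gas6 and protein S. Its levels were 125, 115, 133 and 126 CPM without IgG and 163, 115, 152 and 99.8 CPM with IgG. Control libraries stayed within a narrow range, and the IgG libraries lay on both sides of it. For Mertk the log2 fold change was 0.06 (standard error 0.12), or 0.04 with the trends removed, and it turned to -0.04 when libraries were scaled by their total counts and to -0.17 without pairs 1 and 3.

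Timd4 (ENSMUSG00000055546, chr11:46810800-46844332, plus strand, protein coding), also called TIM-4, binds phosphatidylserine directly and tethers dying cells. Control libraries had 1.70, 0.586, 1.34 and 0.474 CPM and IgG libraries 2.64, 0.783, 3.14 and 0.683 CPM. These levels rest on 11 to 64 counts per library. The log2 fold change was 0.75 (standard error 0.26), with pairs at 0.61, 0.37, 1.18 and 0.46. It was 0.74 with the trends removed and 0.47 without pairs 1 and 3. The IgG libraries of dates 2 and 4 were below the control libraries of dates 1 and 3, so the groups overlapped although all 4 pairs were higher.

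Cd5l (ENSMUSG00000015854, chr3:87357881-87371073, plus strand, protein coding), also known as AIM, is a secreted protein with scavenger receptor domains that macrophages release. Control libraries had 2.94, 1.76, 5.11 and 1.68 CPM and IgG libraries 5.83, 2.30, 5.79 and 2.46 CPM. For Cd5l the log2 fold change was 0.53 (standard error 0.19), with pairs at 0.96, 0.37, 0.18 and 0.53. It was 0.58 with the trends removed and 0.47 without pairs 1 and 3. As for Timd4, dates 1 and 3 were high in both groups.

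Of the 9 genes tested, 8 had a log2 fold change above 0, with a median of 0.25 against -0.01 over all genes tested. With the trends removed the medians were 0.29 and -0.00. Without pairs 1 and 3, Cd36, Olr1, Mrc1 and Mertk were below 0, at -0.21, -0.38, -0.08 and -0.17. The other members tested were above 0, and the middle value was the 0.08 of Msr1. Marco, Stab1, Timd4 and Cd5l were higher with IgG in all 4 pairs, which is 4 of 9 where 10.4% of all genes were. Since the group was chosen with this contrast known, these values describe the genes and no more.

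**Figure D2:**
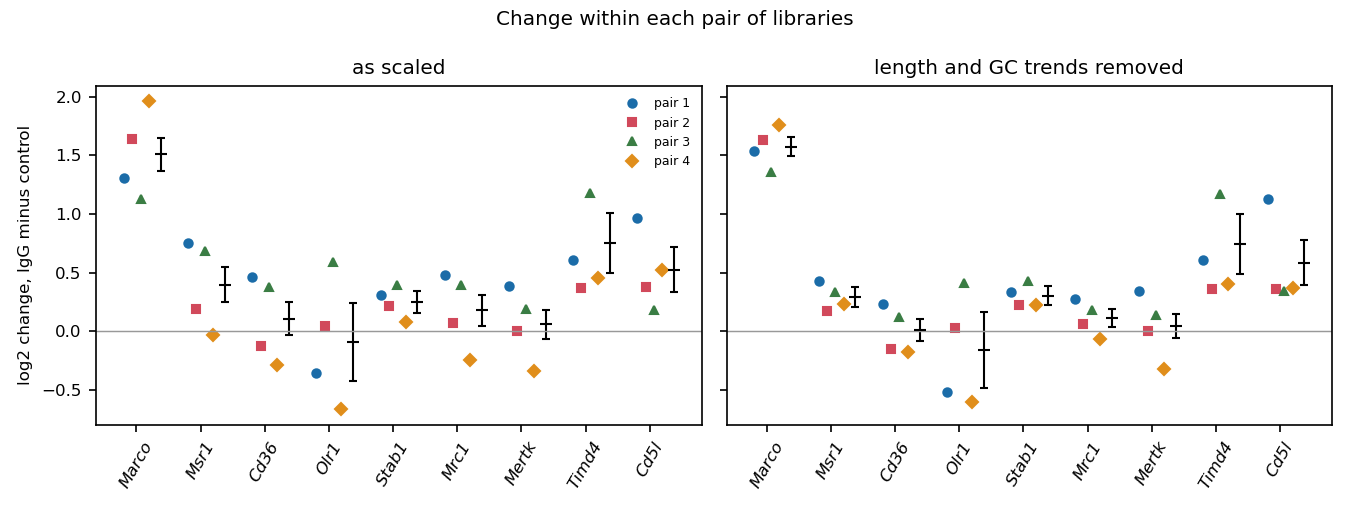
Log2 change within each pair (vertical axis, IgG minus control) for the 9 genes tested, as scaled (left) and after removal of length and GC trends (right); symbols are pairs and black bars the fitted value ± standard error. Marco lies apart at 1.13 to 1.96, and the spread between its pairs narrows to 1.36 to 1.75 on the right.

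Per kilobase of exon, which allows levels of different genes to be compared, the control cultures ranged over several orders of magnitude. Cd36 had 140 ± 20.1 CPM per kb and Msr1 138 ± 14.8 (SD, n = 4 each), and these overlapped. Stab1 followed with 73.7 ± 4.83, above the range of Mertk at 28.7 ± 1.76. Mertk overlapped with Marco at 23.8 ± 7.16 CPM per kb, and Mrc1 came next with 10.5 ± 1.76. Cd5l had 1.41 ± 0.785, Timd4 0.472 ± 0.272 and Olr1 0.216 ± 0.0861 CPM per kb, and the ranges of Timd4 and Olr1 overlapped. Cd163 was last.

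With IgG, Marco moved above Mertk in this order, to 65.8 ± 6.17 CPM per kb (SD, n = 4) against 30.5 ± 6.90. Its control level was above that of 86.6% of the genes tested, and its IgG level above 95.0%. Msr1 (191 ± 67.4) and Cd36 (158 ± 57.8) also changed places with IgG, but their ranges overlapped in both groups. The other members kept their place.

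**Figure D3:**
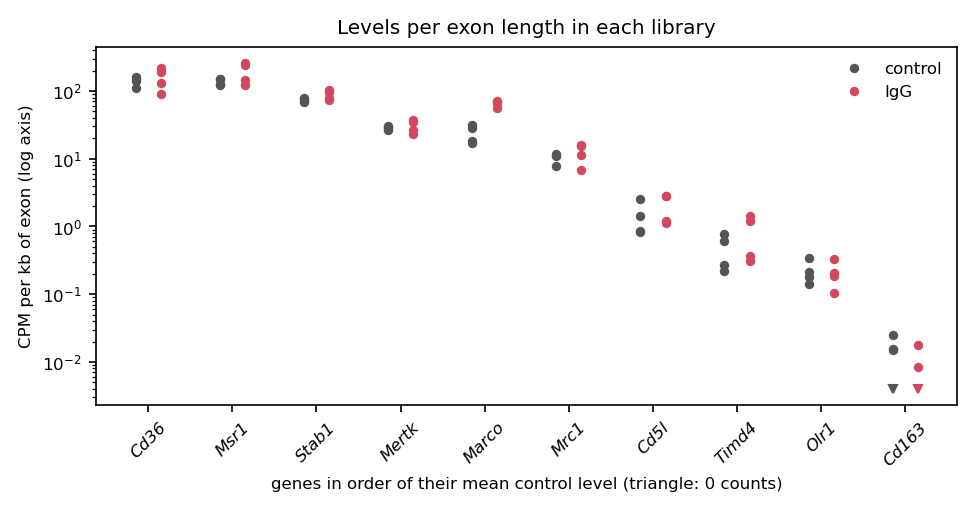
CPM per kb of exon (vertical axis, log scale) in each control and IgG library, with genes in the order of their mean control level and triangles for libraries with 0 counts. Marco is the gene whose IgG points, 56.9 to 71.0, are all above its control points, 17.2 to 31.3.

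Differences between dates do not use the IgG contrast, since each date holds 1 library of each group, and can be tested in the members. In edgeR's quasi-likelihood test of the 3 date terms, with Benjamini-Hochberg adjustment over all genes, 0 of the 9 genes passed an adjusted p of 0.05, where 0.975% of all genes did. At an unadjusted p-value under 0.05 there were 5, Timd4, Cd5l, Mrc1, Cd36 and Msr1, against 9.81% of all genes. DESeq2 and edgeR without a filter on low counts called these 5 genes at an adjusted p-value under 0.05, against 3.18% and 2.84% of all genes. EdgeR's likelihood ratio test called 4 of them, without Msr1, against 5.38% of all genes. With the trends on length and GC content removed, 4 of the 9 (Marco, Mrc1, Timd4 and Cd5l) passed in the quasi-likelihood test, where 2.18% of all genes did.

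Timd4 had the widest range between dates. Its mean over both groups was 2.17, 0.684, 2.24 and 0.578 CPM at dates 1 to 4. Its log2 range over dates was 1.74, taken from log2 CPM with a prior count of 2 averaged over both groups. In edgeR's quasi-likelihood test the unadjusted p was 0.00102 and the adjusted p 0.0805, or 0.0370 with the trends removed. The highest control library was 3.59 times the lowest, and the highest IgG library 4.60 times. Cd5l averaged 4.39, 2.03, 5.45 and 2.07 CPM, a log2 range of 1.39 (edgeR's quasi-likelihood test, adjusted p = 0.0854, and 0.0266 with the trends removed). Mrc1 averaged 87.0, 71.8, 86.8 and 46.6 CPM (edgeR, adjusted p = 0.190, and 0.0264 with the trends removed).

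For Cd36 and Msr1 the log2 ranges over dates were 0.88 and 0.68, with adjusted p-values of 0.271 and 0.380 by edgeR's quasi-likelihood method. Marco averaged 95.8, 72.2, 95.8 and 81.0 CPM over both groups at dates 1 to 4. Between dates its adjusted p was 0.535 by edgeR's quasi-likelihood method and 0.0182 with the trends removed. Stab1, Olr1 and Mertk had adjusted p-values of 0.641, 0.642 and 0.657 in the same edgeR test.

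The dates split in the same way for most of the genes. In 7 of the 9, all but Olr1 and Mertk, the libraries of dates 1 and 3 were above those of dates 2 and 4 in the control group and again in the IgG group, as for 10.6% of all genes tested. This pattern was picked after the values were seen and was not tested. The mitochondrial share was 2.41%, 2.38%, 2.32% and 2.32% in control libraries 1 to 4, which does not show this split. In IgG libraries 1 to 4 it was 4.85%, 2.21%, 5.59% and 1.97%, with dates 1 and 3 above dates 2 and 4. The sum of border-associated macrophage markers followed the split of the genes in both groups. It was 1071, 873, 1006 and 754 CPM in control libraries 1 to 4 and 1794, 1175, 1667 and 871 CPM in IgG libraries. Dab2, Siglec1 and Ms4a7 carried most of it, with control means of 383, 305 and 201 CPM. Dab2, Siglec1, Cd38 and Cbr2 had the split in both groups, and Ms4a7, Pf4, Folr2, F13a1 and Lyve1 did not. Folr2 ran against it in IgG libraries 1 to 4, at 9.52, 10.7, 8.64 and 13.7 CPM. The sum of oligodendrocyte lineage markers ran the other way, with 528, 807, 541 and 749 CPM in control and 555, 761, 551 and 659 CPM in IgG libraries. The part of these in the date differences was not tested.

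**Figure D4:**
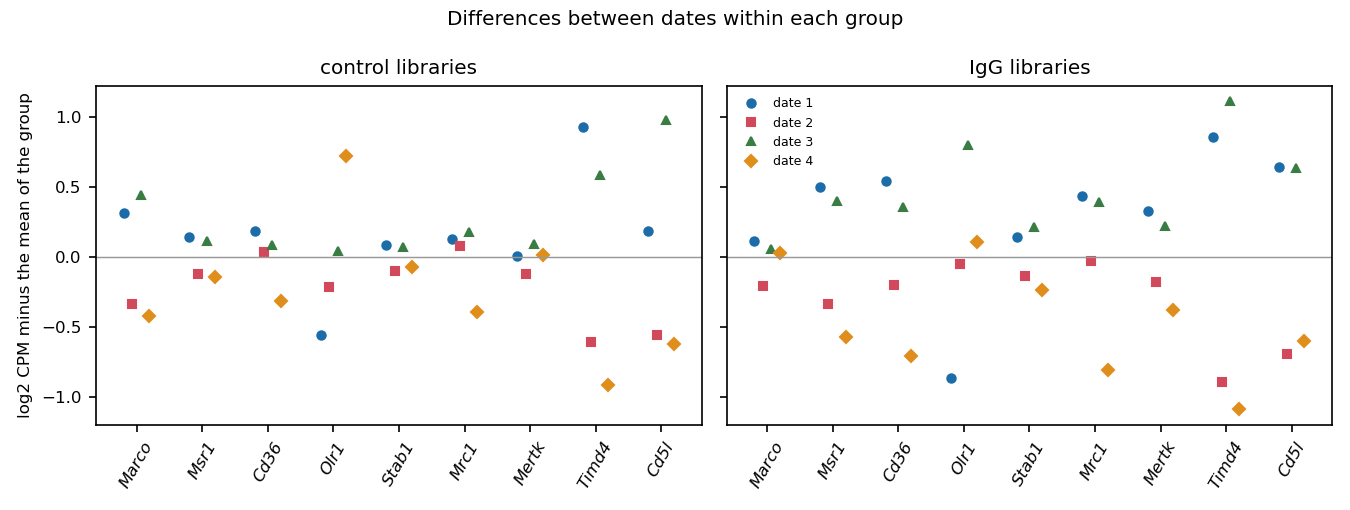
Log2 CPM of each library minus the mean of its group (vertical axis) for the 9 genes tested, with control libraries on the left and IgG libraries on the right; symbols are dates. Circles and triangles (dates 1 and 3) lie above squares and diamonds (dates 2 and 4) in both panels for 7 genes, most widely for Timd4 and Cd5l.

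Over the 8 libraries, Pearson correlations of log2 CPM with Marco were 0.75 for Stab1, 0.61 for Cd5l, 0.60 for Msr1, 0.57 for Timd4, 0.33 for Mrc1, 0.27 for Cd36, 0.24 for Mertk and -0.22 for Olr1. Among the others, Cd36 and Mrc1 had 0.97 and Msr1 and Stab1 0.97. These points share libraries, dates and trends on length and GC content, and are given as a description. The genes of the whole table most like Marco over the 8 libraries were Slc31a2 (0.98), a copper transporter, Unc93b1 (0.97), which carries Toll-like receptors to endosomes, Tmem176b (0.96), Pla2g16 (0.96), a phospholipase, and Susd2 (0.96). Correlations within a group were not computed. In each of these 5, as in Marco, the IgG libraries were all above the control libraries, as in 2.6% of all genes tested. These genes were picked by a correlation that includes the difference between the groups, so their separation largely follows from the choice and is no further result. Their size of change differed, from a log2 fold change of 0.16 for Unc93b1 (532 ± 25.3 to 596 ± 4.89 CPM, SD, n = 4 each) to 1.59 for Susd2 (0.522 ± 0.150 to 1.58 ± 0.468 CPM).

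To place the members among genes of like function, 58 related genes in 4 lists were examined with the same edgeR fit, and 49 had enough counts. None of them is a member, but the lists were also drawn up with earlier results of this contrast known, so their p-values are not independent evidence. The median log2 fold change of the 49 was 0.02, and 28 were above 0 and 21 below. With adjustment over all genes, 1 rose, Lgals3bp, and 0 fell at the 0.05 threshold, which 0.393% of all genes tested passed. This call was lost without the block and without pair 1, 2 or 3. Before adjustment, 7 were higher and 1 was lower at p under 0.05, where 10.2% of all genes tested passed in either direction. DESeq2 called 3 at the adjusted threshold, where it called 1.46% of all genes.

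The list of other scavenger receptors held 15 genes, of which 12 were tested. None passed the adjusted threshold in edgeR's quasi-likelihood test, with 1 at p under 0.05 before adjustment, and their median was -0.02. Cxcl16, a transmembrane chemokine that also binds oxidised lipoprotein, averaged 253 ± 24.2 CPM without and 343 ± 51.5 CPM with IgG (SD, n = 4 each). All its IgG libraries were above all its control libraries, as in 2.6% of all genes tested. The log2 change was 0.43 with a standard error of 0.09 (edgeR's quasi-likelihood test, adjusted p = 0.127, and 0.0378 with the trends removed). It was called by DESeq2 and by the likelihood ratio test as well. Scarf1 (-0.53, standard error 0.30) and Ager (-0.32, standard error 0.42) were the other named genes of this list, at levels of 1.81 and 0.771 CPM in control. Dmbt1 had 0 counts in all 8 libraries, and Scara3 and Scara5 were too low to test.

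The phosphatidylserine receptors and bridging ligands other than Mertk and Timd4 comprised 22 genes, 21 of them tested, with a median log2 fold change of -0.01. None passed the adjusted threshold in edgeR's quasi-likelihood test, and 1 was higher and 1 lower at p under 0.05 before adjustment. Tgm2, the transglutaminase that acts with integrins in engulfment, was the 1 gene of this list to meet the criterion of the study, and it did not meet it without the block, under scaling by total counts, or without pair 1 or 3. DESeq2, the likelihood ratio test and the fit without a filter called it at the adjusted threshold. Its log2 change was 0.59 with a standard error of 0.13 (edgeR's quasi-likelihood test, adjusted p = 0.176). Its control libraries had 24.0, 15.5, 24.0 and 15.2 CPM and its IgG libraries 44.6, 18.2, 42.0 and 19.7 CPM, so that dates 1 and 3 were high in both groups. Itgb3, an integrin subunit, had -0.34 (standard error 0.11, adjusted p = 0.377 in edgeR) and was lower in all 4 pairs. Cd300lf, a lipid-binding receptor, had 0.32 (standard error 0.18).

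Of 12 structural relatives, genes with lectin, TIM or scavenger domains like those of the members, 7 were tested. Their log2 fold changes were all above 0, from 0.12 to 0.68 with a median of 0.35, and 3 had an unadjusted p-value under 0.05, which 10.2% of all genes had. Lgals3bp, a secreted protein with a scavenger receptor domain that binds galectins, had 701, 503, 652 and 372 CPM without IgG and 1191, 703, 1109 and 612 CPM with IgG. It rose in each of the 4 pairs, by 0.68 on the log2 scale with a standard error of 0.10 (edgeR's quasi-likelihood test, adjusted p = 0.0331), although the groups overlapped. It no longer passed without the block (log2 fold change 0.70) or when pair 1, 2 or 3 was left out, and without the block or pair 2 no gene of the table passed. It passed without pair 4, with DESeq2, with the likelihood ratio test and with the trends removed. It also passed without pairs 1 and 3 together, but only pairs 2 and 4 remain there, too few to give that call weight. Pla2r1 (0.43, standard error 0.24) and Clec12a (0.37, standard error 0.09), an inhibitory lectin receptor, did not pass the adjusted threshold. Clec12a and Cxcl16 were the 2 related genes tested with every IgG library above every control library, as in 2.6% of all genes tested.

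Of 9 transcription factors known from the control of macrophage receptor genes, all were tested and none passed the adjusted threshold in edgeR's quasi-likelihood test, with 2 at an unadjusted p-value under 0.05. Their median log2 fold change was 0.01. Nr1h3, the liver X receptor alpha, had 0.37 with a standard error of 0.10 (edgeR's quasi-likelihood test, adjusted p = 0.255, and 0.0467 with the trends removed). Its mean was 28.2 ± 5.59 CPM without and 36.3 ± 6.25 CPM with IgG (SD, n = 4 each), and all 4 pairs were higher. Id3 had -0.29 (standard error 0.16) and Maf 0.24 (standard error 0.10).

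**Figure D5:**
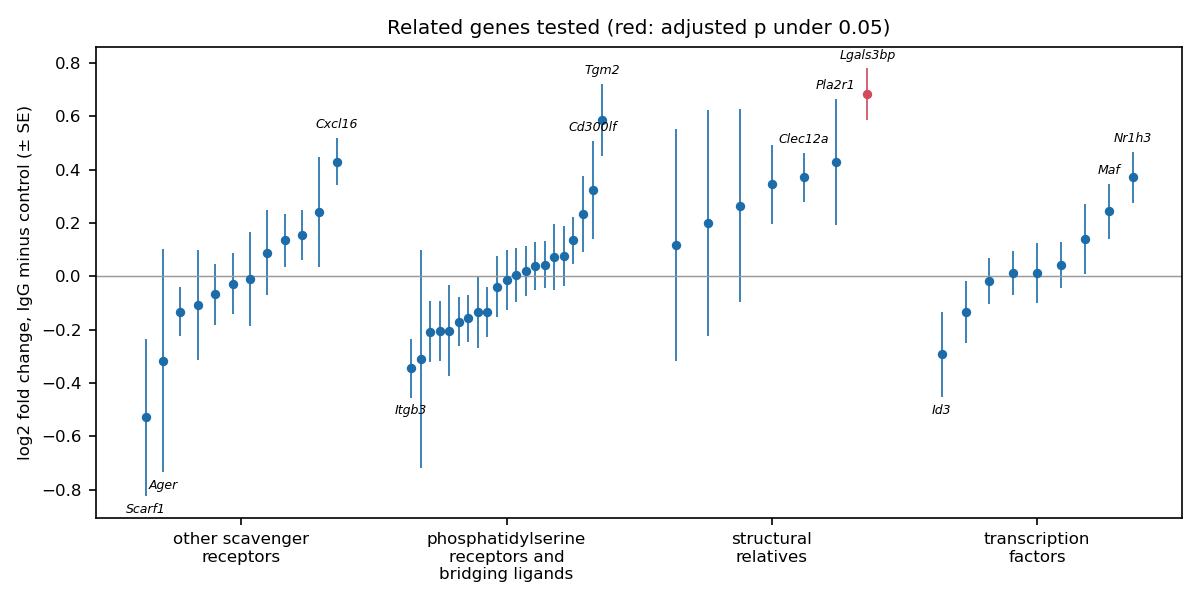
Log2 fold change with IgG (vertical axis, points ± standard error) of the 49 related genes tested, in 4 lists and sorted within each list, with the 3 largest changes of each list named and genes under an adjusted p of 0.05 in red. Lgals3bp at 0.68 is the 1 red point, and no point reaches the 1.51 of Marco.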

How the data were processed

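RNA of 4 control and 4 IgG-treated primary cultured microglia cultures was sequenced. The deposited values are raw counts per Ensembl gene. The authors filtered reads and aligned them with HISAT2, for which the submitters' processing notes list version 2.2.1 and GRCm38 (mm10). The notes also list featureCounts. The annotation, use of strand and treatment of multi-mapped reads are not given in the sources used here. Rows were matched to GENCODE M21, and 55144 of 55385 identifiers were found. Library totals were 21287816 to 23703216 counts.

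Counts were scaled by TMM, filtered with filterByExpr (17537 genes) and fitted in edgeR 4.0.16 (R 4.3.3) by its quasi-likelihood test, with group and replicate number as terms and Benjamini-Hochberg adjustment over all genes. The replicate numbers pair the libraries, because same-numbered libraries carry the same date in the labels. Deviations from group means correlated across 10538 genes at 0.23 to 0.45 within dates and at -0.38 to 0.26 between dates. No 2 libraries of a group agreed within sampling noise (chi-square per degree of freedom at least 5.00). The block takes up differences between dates. P-values of this fit therefore rest on how the difference between IgG and control varied from pair to pair, and not on the whole spread between cultures.

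Changes within pairs are differences of log2 CPM with a prior count of 2. Trends on exon length and GC content were removed by lowess (span 0.3). DESeq2 1.42.0, other scalings, filters and tests, and omission of pairs were alternatives, and omission of pairs 1 and 3 together was added after seeing the data. Named were all members, per related list the genes past an adjusted p of 0.05 and the 3 largest changes, the leading marker of each cell type list and any marker at 0, and the 5 genes most correlated with Marco. Some of the leading markers are not reported here. Siglech, Lyve1 and the other border-associated macrophage markers besides Dab2 were named after their values were seen, as was Nt5dc2 for its overlap. The members and lists were chosen with earlier results of these data known. The code was tested on simulated data.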

Additional observations from a re-analysis of the deposited data

How the results depend on the processing

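The replicate number was a block in the analysis above. With no replicate block, 0 members and 0 related genes passed an adjusted p of 0.05 (edgeR's quasi-likelihood test; 1230 genes of the table and 5 related genes had an unadjusted p under 0.05), and 0 related genes met the criterion of p under 0.01 and log2 fold change above 0.5. Over the pairs left out in turn, members past the adjusted threshold ranged from 0 (without pair 2, where 0 genes of the table passed) to 1, members meeting the criterion from 1 to 2 (Marco and Msr1 without pair 4, where 762 genes of the table met it against 320), related genes past the adjusted threshold from 0 (without pair 1, 2 or 3) to 1 and related genes meeting the criterion from 1 to 2. Without pairs 1 and 3 together, chosen after seeing the data, 1 related gene met the criterion (327 genes of the table) and 1 member, Mrc1, differed between dates (247 genes of the table). Only pairs 2 and 4 remain in that fit, too few to give these calls weight. Members differing between dates were 0 in the analysis above (171 genes of the table), 5 without a filter (891), 5 with DESeq2 (536), 4 with the likelihood ratio test (943) and 4 with trends on length and GC content removed (383). Related genes past the adjusted threshold were 3 in each of these 4 alternatives, where 376, 231, 327 and 213 genes of the table passed. The likelihood ratio test had 2 members meeting the criterion (Marco and Timd4), as 528 genes of the table did. Scaling by total counts left 1 related gene meeting the criterion and put the median log2 fold change of all genes at -0.105.

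The sign of Cd36 turned without pair 1 and without pairs 1 and 3, that of Mrc1 without pairs 1 and 3, that of Olr1 without pair 4, and that of Mertk under total counts, without pair 1 and without pairs 1 and 3. The cause of these changes was not tested. Depth limits Cd163, Olr1 and Timd4 most.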
